A study of Homo sapiens with 15 samples.

Results

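Epithelial-mesenchymal transition (EMT) factors and the adhesion and filament genes they act on were followed in the 2 partners of a fibroblast and small cell lung cancer (SCLC) co-culture. The set held 10 genes chosen by name: the EMT transcription factors SNAI1, SNAI2, TWIST1, TWIST2, ZEB1, ZEB2 and PRRX1, the cadherins CDH1 and CDH2, and the intermediate filament gene VIM. All 10 were listed among the 16382 genes of the MRC5 table and the 16076 genes of the H196 table, 17138 genes in either. MRC5, a human lung fibroblast line, was grown alone (MRC5_Mo), with the neuroendocrine (NE) SCLC line H69 (MRC5_CoH69) or with the non-NE SCLC line H196 (MRC5_CoH196), and H196 was grown alone (H196_Mo) or with MRC5 (H196_Co). Co-culture lasted a week, the partner sat on a transwell insert and only the cells of the well were sequenced, so no group held contact between the lines. Each group had 3 libraries, 15 in all, made from poly(A) RNA and described as parallel replicates, so p-values measure the spread between these libraries, which may be technical. Each partner is a single cell line, H69 cells themselves were not among the samples, and in bulk RNA fewer cells with a transcript cannot be told apart from less of it per cell.

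Libraries held 18476890 to 19170560 counts for MRC5 and 16073597 to 17358349 for H196. The labelled cell types were checked on marker genes. In MRC5_Mo 11 of 12 fibroblast markers exceeded 3 counts in every library, with a summed level of 2.72e+04 to 3.02e+04 CPM, a count scaled to the library total. That sum was 3.11e+04 to 3.21e+04 CPM in MRC5_CoH69 and 1.31e+04 to 1.39e+04 CPM in MRC5_CoH196, a lower sum carried by the collagens COL1A1, COL1A2 and COL3A1, while THY1 was slightly lower, PDGFRB and TBX5 were higher and DCN, LUM and FAP overlapped the range of MRC5_Mo. The part of these differences in the results below was not tested. In H196 the same list summed to 2.12 to 2.53 CPM alone and 2.5 to 3.33 CPM with MRC5, with 10 of 12 genes, among them COL1A2, COL3A1 and PDGFRA, at or under 3 counts in at least 1 library. Of 10 epithelial markers, CDH1, ELF3, GRHL2 and ESRP1 stayed at or under 3 counts in at least 1 library of every group. KRT8 and KRT18 were detected in all groups, with KRT18 at 178 to 185 CPM in H196_Mo. Of 13 neuroendocrine genes, INSM1, NCAM1, GRP and NEUROD1 were also at or under 3 counts in at least 1 library of every group. Those above 3 counts in every library numbered 6 in H196_Mo, 9 in H196_Co and 4 in each MRC5 group. In H196_Mo they were UCHL1, INA, SCG2, CHGB, SYP and DLL3. UCHL1 reached 460 to 505 CPM in H196_Mo and 451 to 468 CPM in MRC5_Mo. All 6 non-NE SCLC genes (REST, YAP1, MYC, AXL, CD44 and CAV1) exceeded 3 counts in every library of every group. They summed to 1.6e+03 to 1.66e+03 CPM in H196_Mo, 1.69e+03 to 1.76e+03 CPM in H196_Co and 4.34e+03 to 4.51e+03 CPM in MRC5_Mo.

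EMT is the loss of epithelial junctions and the gain of a motile, matrix-producing state. SNAI1 and SNAI2 (Snail and Slug) and ZEB1 and ZEB2 are zinc-finger repressors that bind E-boxes with the letters CAGGTG, among others in the promoter of CDH1, which encodes E-cadherin, the main adhesion molecule of epithelium. TWIST1 and TWIST2 are basic helix-loop-helix factors, and PRRX1 is a homeobox factor of mesenchyme. Fibroblasts express many of these genes without having gone through EMT, together with N-cadherin (CDH2) and vimentin (VIM). Non-NE SCLC lines such as H196 are known for a mesenchymal appearance, in contrast to NE lines, which grow as floating clusters.

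RefSeq promoter windows on GRCh38.p14 were at hand for 6 of the 10 genes, and the 250 bases before the start are shown for 3 genes that were higher in MRC5 grown with H196 (ZEB1, ZEB2 and VIM) and 1 that was lower (PRRX1). Capitals mark CAGGTG or CACCTG, the E-box on either strand. ZEB1 has 7 windows in RefSeq, and the one shown ends at the base before the gene start of the deposited table, as does the VIM window. The windows of ZEB2 and PRRX1 lie inside the deposited gene spans, so the start they precede is not the outer end of the gene. The ZEB2 window lies on the minus strand and is written in the sense of the gene, and the others lie on the plus strand.
ZEB1 (chr10:31318167-31318416, plus strand): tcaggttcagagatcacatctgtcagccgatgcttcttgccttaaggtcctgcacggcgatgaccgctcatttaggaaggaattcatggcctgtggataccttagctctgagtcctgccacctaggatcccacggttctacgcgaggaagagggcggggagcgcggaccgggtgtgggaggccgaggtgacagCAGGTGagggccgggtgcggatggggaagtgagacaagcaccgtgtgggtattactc
ZEB2 (chr2:144520120-144520369, minus strand): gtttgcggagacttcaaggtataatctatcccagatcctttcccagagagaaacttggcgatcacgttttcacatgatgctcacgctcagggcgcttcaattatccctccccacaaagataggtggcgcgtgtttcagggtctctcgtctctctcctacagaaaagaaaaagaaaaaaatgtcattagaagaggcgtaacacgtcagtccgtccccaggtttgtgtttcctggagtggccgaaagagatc
VIM (chr10:17227991-17228240, plus strand): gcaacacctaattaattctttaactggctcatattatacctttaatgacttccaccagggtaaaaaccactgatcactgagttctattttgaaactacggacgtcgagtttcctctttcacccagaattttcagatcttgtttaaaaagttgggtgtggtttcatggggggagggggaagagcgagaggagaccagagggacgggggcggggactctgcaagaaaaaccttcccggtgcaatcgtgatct
PRRX1 (chr1:170663881-170664130, plus strand): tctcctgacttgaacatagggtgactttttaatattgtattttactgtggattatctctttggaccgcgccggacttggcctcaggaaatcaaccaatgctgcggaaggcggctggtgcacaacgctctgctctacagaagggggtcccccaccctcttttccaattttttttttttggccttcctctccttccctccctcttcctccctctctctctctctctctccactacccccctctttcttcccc

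The ZEB1 window held 1 CAGGTG, at −57 to −52 from the start, and the windows of ZEB2, VIM, PRRX1, TWIST2 and CDH2 held neither form. Of 35116 RefSeq windows of this length 17.5% held CAGGTG or CACCTG. The looser E-box CANNTG, which includes both, occurred 2 times in the ZEB1 window, as the site in capitals and as CATCTG at −234 to −229. It occurred 1 time for ZEB2 and not in the windows of VIM and PRRX1, against 61.8% of all windows. The letters ACGTG or GCGTG are the core of a hypoxia response element. On either strand they were found at 4 places of the ZEB2 window and 1 of the CDH2 window. For ZEB1 1 of 7 windows and for CDH2 1 of 2 windows was searched. The windows searched for ZEB1, VIM, PRRX1 and TWIST2 held none, while 43.2% of all windows held at least 1. These are matches of letters only.

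The levels of the 10 genes separated the lines first (per-gene plot of FPKM). SNAI2 was the most abundant of the 7 factors in MRC5, with a mean of 39.75 ± 1.88 fragments per kilobase and library size (FPKM, SD, n = 3) in MRC5_Mo. In H196 it was at or near 0, with 0 to 1 counts in every library of H196_Mo and H196_Co, below the 3 counts that a count of 0 allows. ZEB1 followed in MRC5_Mo at 28.82 ± 0.704 FPKM and reached 9.177 ± 0.437 FPKM in H196_Mo. TWIST2 (17.33 ± 0.378 FPKM), PRRX1 (13.96 ± 0.347), SNAI1 (7.09 ± 1.18), TWIST1 (6.887 ± 0.602) and ZEB2 (6.873 ± 0.242) came next in MRC5_Mo. In H196_Mo TWIST2 led with 11.67 ± 1.63 FPKM, and SNAI1 was lowest of the detected factors at 0.94 ± 0.0656 FPKM. The levels of the 2 lines come from separately made tables and were not tested against each other.

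**Figure D1:**
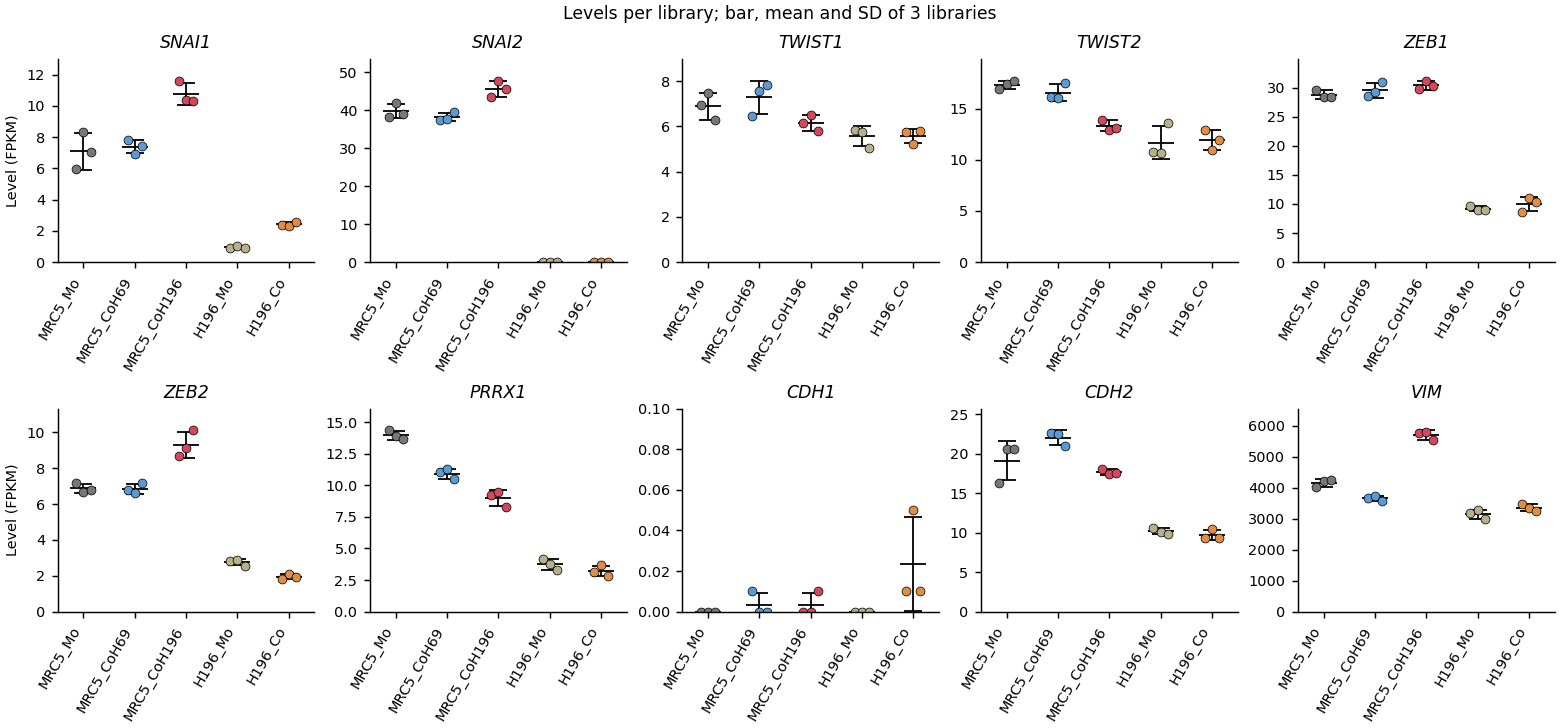
Level in FPKM (y axis, linear, from 0, own scale for each gene) of the 10 genes in the 3 libraries of each group (x axis); points are libraries and bars the mean ± SD. SNAI1, SNAI2, ZEB2 and VIM are highest in all 3 MRC5_CoH196 libraries, PRRX1 steps down from MRC5_Mo to MRC5_CoH69 to MRC5_CoH196, and SNAI2 and CDH1 lie at or near 0 in H196.

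CDH1 was at or near 0 in both lines. It had 0 counts in every library of MRC5_Mo and H196_Mo, at most 1 count in MRC5_CoH69 and MRC5_CoH196, and 1, 4 and 1 counts in the H196_Co libraries. A count of 0 still allows 3 counts, so a difference at this level was not detectable at this depth. CDH2 was detected everywhere, at 19.14 ± 2.47 FPKM in MRC5_Mo and 10.21 ± 0.356 FPKM in H196_Mo. Both lines thus carried N-cadherin and almost no E-cadherin transcript, alone as well as in co-culture.

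VIM was among the most abundant transcripts of either line. It ranked 11 by FPKM in every MRC5_Mo library, 12 to 13 in MRC5_CoH69 and 5 to 6 in MRC5_CoH196, and took 0.877% to 0.923% of all counts in the last group against 0.642% to 0.677% in MRC5_Mo. In H196_Mo it ranked 28 to 35 and in H196_Co 31 to 37. Its level was thus higher, in rank and in share, in fibroblasts than in the tumour line.

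MRC5 grown with H196 was compared with MRC5 alone to ask how the fibroblasts respond to the non-NE line. VIM, ZEB2, SNAI1, SNAI2 and ZEB1 rose, PRRX1 and TWIST2 fell, and TWIST1 and CDH2 did not pass the test (plot of log2 fold changes). The test was edgeR's quasi-likelihood test with Benjamini-Hochberg adjustment over 12819 genes, and changed means an adjusted p under 0.05. Of the 10 genes 9 passed the filter on low counts and 7 changed, 5 up and 2 down, while 74.3% of all genes tested changed (37.2% up and 37.1% down). The count of 7 of 9 is thus near the share of all genes. For 7 of the 9 genes no library of one group fell within the range of the other, as for 75.5% of all genes. The median log2 fold change was 0.25 over the 9 genes and 0.00 over all genes tested.

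**Figure D2:**
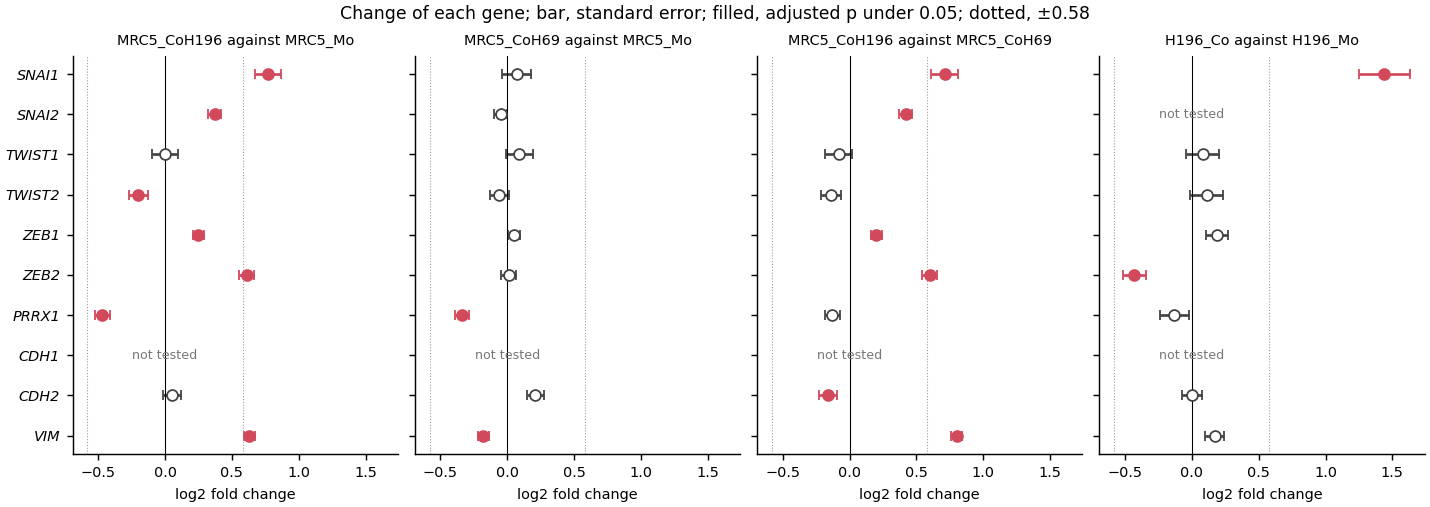
log2 fold change (x axis) of each gene (y axis) in the 4 comparisons of groups; points are edgeR estimates, bars 1 standard error, filled points have an adjusted p under 0.05 and dotted lines mark ±0.58. SNAI1 lies to the right in both lines, while ZEB2 lies at 0.61 in MRC5 with H196 and at −0.43 in H196 with MRC5.

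SNAI1 (gene ID 6615, chromosome 20, 49982980 to 49988886 on GRCh38.p13), whose protein is short-lived and starts many EMT programmes, measured 5.94, 8.3 and 7.03 FPKM in MRC5_Mo and 11.6, 10.37 and 10.31 FPKM in MRC5_CoH196. The 3 co-culture libraries all lay above the 3 alone. The log2 fold change was 0.77 ± 0.099 (SE, adjusted p 1.54e-07, edgeR), or 1.71-fold. Its paralogue SNAI2 measured 38.3, 41.88 and 39.08 FPKM alone and 43.48, 47.72 and 45.61 FPKM with H196. The groups again did not overlap, and the log2 fold change of SNAI2 was 0.37 ± 0.047 (adjusted p 1.44e-07, edgeR), or 0.19 on log2(FPKM + 1) with limma (adjusted p 0.00269).

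ZEB2 (gene ID 9839, chromosome 2, 144349887 to 144524580) measured 7.15, 6.7 and 6.77 FPKM in MRC5_Mo and 8.69, 9.15 and 10.11 FPKM in MRC5_CoH196. All co-culture libraries were higher, by a log2 fold change of 0.61 ± 0.055 (adjusted p 2.63e-10, edgeR). ZEB1 (gene ID 6935), the related repressor, measured 29.63, 28.36 and 28.47 FPKM alone and 29.71, 31.18 and 30.31 FPKM with H196. These FPKM ranges lie next to each other, and ZEB1 rose by 0.25 ± 0.042 on the log2 scale (adjusted p 9.77e-06, edgeR). This rise depended on the scaling. On log2(FPKM + 1) with limma it was 0.07 (adjusted p 0.133), where the median of all genes lay at −0.13, so ZEB1 stood above it by less than the other genes that rose. Antisense RNA genes, ZEB1-AS1, ZEB2-AS1 and VIM-AS1, start beside or overlap these genes. The counting was not stated to use strand, so their reads from any overlapping stretches cannot be told apart from those of ZEB1, ZEB2 and VIM.

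VIM (gene ID 7431, chromosome 10, 17228241 to 17238377) measured 4022.77, 4219.41 and 4247.64 FPKM in MRC5_Mo and 5780.17, 5800.95 and 5532.79 FPKM in MRC5_CoH196. The gap between the groups was wider than the spread within either. VIM rose by 0.63 ± 0.04 on the log2 scale (adjusted p 3.63e-13, edgeR), or 1.54-fold. With SNAI1 and ZEB2 it made up the 3 genes whose log2 fold change also exceeded 0.58, the limit for a DEG, which 31.9% of all genes tested passed. On log2(FPKM + 1) with limma all 3 kept an adjusted p under 0.05 but lay under 0.58, at 0.55 for SNAI1, 0.39 for ZEB2 and 0.45 for VIM. For each of the 5 genes that rose, every H196 library lay below every MRC5_Mo library in FPKM.

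PRRX1 (gene ID 5396, chromosome 1, 170662728 to 170825821) went the other way. It measured 14.34, 13.88 and 13.66 FPKM in MRC5_Mo, 11.02, 11.26 and 10.48 FPKM in MRC5_CoH69 and 9.27, 9.43 and 8.28 FPKM in MRC5_CoH196. No library of one group reached the range of another. PRRX1 fell by 0.47 on the log2 scale with H196 (SE 0.056, adjusted p 4.62e-08, edgeR). TWIST2 measured 16.92, 17.42 and 17.66 FPKM alone and 13.91, 12.91 and 13.11 FPKM with H196, without overlap. Its log2 fold change was −0.20 ± 0.073 (adjusted p 0.0192, edgeR), and the call was lost with DESeq2 (adjusted p 0.0751) and without MRC5_CoH196 replicate 2 (0.0796), MRC5_CoH196 replicate 3 (0.0509) or MRC5_Mo replicate 3 (0.0562). On log2(FPKM + 1) with limma the fall of TWIST2 was larger, at −0.36 (adjusted p 3.47e-05).

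TWIST1, the paralogue of TWIST2, measured 6.94, 7.46 and 6.26 FPKM alone and 6.14, 6.48 and 5.79 FPKM with H196. The groups overlapped, and the log2 fold change was 0.00 ± 0.1 (adjusted p 0.974, edgeR), with a range of −0.16 to 0.06 over the alternatives. CDH2 measured 16.28, 20.56 and 20.57 FPKM alone, the first library standing apart from the other two, and 18.14, 17.41 and 17.53 FPKM with H196. Its log2 fold change was 0.05 ± 0.068 (adjusted p 0.471, edgeR), and its sign depended on the setting, from −0.10 to 0.11.

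MRC5 grown with the NE line H69 was compared with MRC5 alone by the same test. PRRX1 and VIM fell, and the other 7 genes tested did not pass. Of the 9 genes tested 2 changed, both down, against 6.7% of all genes tested (3.78% up and 2.93% down), and neither log2 fold change exceeded 0.58 in size, which 0.554% of all genes did as DEGs. PRRX1 fell by 0.34 on the log2 scale (SE 0.054, adjusted p 0.000212, edgeR), from the values given above. VIM measured 3660.89, 3745.13 and 3579.41 FPKM in MRC5_CoH69, all below MRC5_Mo, and fell by 0.18 on the log2 scale (SE 0.04, adjusted p 0.0062, edgeR). That call was lost without MRC5_Mo replicate 2 (adjusted p 0.0503) and on log2(FPKM + 1) with limma (adjusted p 0.0535).

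Among the genes that did not pass with H69, SNAI1 measured 7.8, 6.93 and 7.46 FPKM in MRC5_CoH69 and overlapped MRC5_Mo, a change of 0.07 ± 0.11 on the log2 scale (adjusted p 0.78, edgeR). ZEB2 measured 6.76, 6.64 and 7.16 FPKM, a change of 0.01 ± 0.056 on the log2 scale (adjusted p 0.946, edgeR). CDH2 measured 22.64, 22.53 and 21 FPKM, above all MRC5_Mo libraries, with a log2 fold change of 0.21 ± 0.066 that missed the threshold (adjusted p 0.0551, edgeR). It passed without MRC5_CoH69 replicate 3 (adjusted p 0.0446), without MRC5_Mo replicate 3 (0.0372) and with no filter on low counts (0.0274). PRRX1, VIM and CDH2, 3 of the 9 genes, had separate ranges in the 2 groups, as had 25.7% of all genes.

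The direct comparison of the co-cultures asked whether the 2 partners differed in their effect on MRC5. Against MRC5_CoH69, MRC5_CoH196 had higher VIM, SNAI1, ZEB2, SNAI2 and ZEB1 and lower CDH2. Of the 9 genes tested 6 changed, 5 up and 1 down, against 72.3% of all genes tested (35.7% up and 36.6% down), and 8 did not overlap, against 73.1%. The log2 fold change was 0.80 ± 0.04 for VIM (adjusted p 3.67e-15, edgeR), 0.71 ± 0.099 for SNAI1 (6.8e-07) and 0.60 ± 0.055 for ZEB2 (4.28e-10). It was 0.42 ± 0.047 for SNAI2 (adjusted p 2.24e-08, edgeR) and 0.20 ± 0.042 for ZEB1 (0.000171), the latter lost on log2(FPKM + 1) at 0.04 (adjusted p 0.429, limma).

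CDH2 was lower by a log2 fold change of −0.16 ± 0.067 (adjusted p 0.0394, edgeR). This call was lost with DESeq2 (adjusted p 0.0807) and when any of 5 libraries was left out, namely MRC5_CoH196 replicate 1 (0.055), 2 (0.13) or 3 (0.0759) or MRC5_CoH69 replicate 1 (0.145) or 2 (0.112). PRRX1 lay lower in all MRC5_CoH196 libraries, yet its log2 fold change of −0.13 ± 0.057 missed the threshold (adjusted p 0.0522, edgeR). It passed on log2(FPKM + 1) at −0.26 (adjusted p 0.00136, limma) and without MRC5_CoH196 replicate 1 (0.0402), MRC5_CoH196 replicate 2 (0.0482) or MRC5_CoH69 replicate 3 (0.029). TWIST2, at −0.14 ± 0.074 (adjusted p 0.0906, edgeR), passed on that scale (−0.29, adjusted p 0.000183, limma), as did TWIST1 (−0.21, 0.0273), and the median of all genes lay at −0.14 there. The comparisons with MRC5_Mo share those control libraries.

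H196 grown with MRC5 was compared with H196 alone to ask how the tumour line responds to fibroblasts. SNAI1 rose and ZEB2 fell, and the other 6 genes tested did not pass. Of the 8 genes tested 2 changed, against 19.8% of all 12806 genes tested, and 1, SNAI1, was a DEG, against 3.86% (3.26% up). SNAI1 measured 0.88, 1.01 and 0.93 FPKM in H196_Mo and 2.37, 2.34 and 2.59 FPKM in H196_Co. These values rest on 20 to 25 counts per library alone and 56 to 63 with MRC5. The log2 fold change was 1.44 ± 0.19 (adjusted p 2.4e-05, edgeR), or 2.72-fold. SNAI1 in H196_Co remained below every MRC5 library.

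ZEB2 measured 2.82, 2.89 and 2.57 FPKM in H196_Mo and 1.81, 2.09 and 1.93 FPKM in H196_Co. All co-culture libraries were lower, and ZEB2 fell by 0.43 on the log2 scale (SE 0.087, adjusted p 0.0017, edgeR). VIM measured 3183.04, 3271.49 and 2992.48 FPKM alone and 3476.46, 3343.41 and 3250.85 FPKM with MRC5. The lowest co-culture library overlapped the range of FPKM alone, while on the model's scale the groups lay apart, and the log2 fold change of 0.17 ± 0.074 did not pass (adjusted p 0.112, edgeR). Groups lay apart for 3 of 8 genes, against 37.2% of all genes.

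The remaining genes of H196 showed smaller differences. ZEB1 measured 9.68, 8.9 and 8.95 FPKM alone and 8.57, 11 and 10.31 FPKM with MRC5, a change of 0.19 ± 0.082 on the log2 scale (adjusted p 0.106, edgeR). Without H196_Co replicate 1, the lowest of the 6, it passed at 0.28 (adjusted p 0.0186). PRRX1 (−0.13 ± 0.11, adjusted p 0.439, edgeR), TWIST2 (0.11 ± 0.12, 0.538), TWIST1 (0.08 ± 0.12, 0.668) and CDH2 (0.00 ± 0.076, 0.995) did not pass on the log2 scale. SNAI2, which MRC5 held at 37.5 FPKM or more in every library, stayed at 0 to 1 counts in H196_Co, and the fibroblast markers COL1A2, COL3A1 and PDGFRA were at or near 0 there.

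Whether a gene responded differently in the 2 partners was tested as an interaction, the log2 fold change of MRC5 with H196 minus that of H196 with MRC5. Of the 9 genes tested 5 passed, against 51.2% of 13585 genes tested. The 9 include SNAI2, which was at or near 0 in H196, and the filter likewise kept genes counted in a single line among the 13585. ZEB2 went in opposite directions, up in MRC5 and down in H196, with a difference of 1.02 ± 0.1 (adjusted p 3.51e-09, edgeR). SNAI1 rose in both lines and by more in H196, with a difference of −0.70 ± 0.23 (adjusted p 0.0114, edgeR) that was lost on log2(FPKM + 1), at −0.28 (adjusted p 0.0736, limma). VIM rose in MRC5 and did not pass the test in H196, with a difference of 0.43 ± 0.077 (adjusted p 3.29e-05, edgeR).

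PRRX1 had a difference of −0.36 ± 0.12 (adjusted p 0.0119, edgeR), lost without MRC5_CoH196 replicate 3 (adjusted p 0.0916), H196_Co replicate 2 (0.0723) or H196_Mo replicate 3 (0.0605). TWIST2 had a difference of −0.33 ± 0.13 (adjusted p 0.04, edgeR). It was lost with DESeq2 (adjusted p 0.117) and with DESeq2 size factors in edgeR (0.0747). Leaving out any one library of MRC5_CoH196 or MRC5_Mo also lost it. So did leaving out MRC5_CoH69 replicate 2, H196_Co replicate 1 or 3, or H196_Mo replicate 1 or 2. The adjusted p of these edgeR fits was 0.0503 to 0.16. ZEB1, TWIST1 and CDH2 did not pass. For SNAI2 the difference has no content, since H196 held 0 to 1 counts.

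Adding the 7 factors asked whether their summed transcript level moved or only its make-up. The sum of FPKM was 121 ± 2.85 (SD, n = 3) in MRC5_Mo, 117 ± 3.58 in MRC5_CoH69 and 125 ± 2.38 in MRC5_CoH196 (bar plot of summed levels and shares). It differed by 3.15% between MRC5_CoH196 and MRC5_Mo, with overlapping libraries (exact permutation test, two-sided, p = 0.3, where 3 against 3 cannot go below 0.1). In H196 it was 33.9 ± 0.717 alone and 35.1 ± 0.463 with MRC5, a difference of 3.65% without overlap (exact permutation p = 0.1, the smallest possible). Between MRC5_CoH196 and MRC5_CoH69 it differed by 6.63% without overlap (exact permutation p = 0.1). The size of these differences depended on the scale. On TMM-scaled CPM, which differs from FPKM both in its scaling and in not being per length, the sum was 19.4% higher in MRC5_CoH196 than in MRC5_Mo (exact permutation p = 0.1, the smallest possible). In H196 it differed by 3.18% on that scale (exact permutation p = 0.5).

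**Figure D3:**
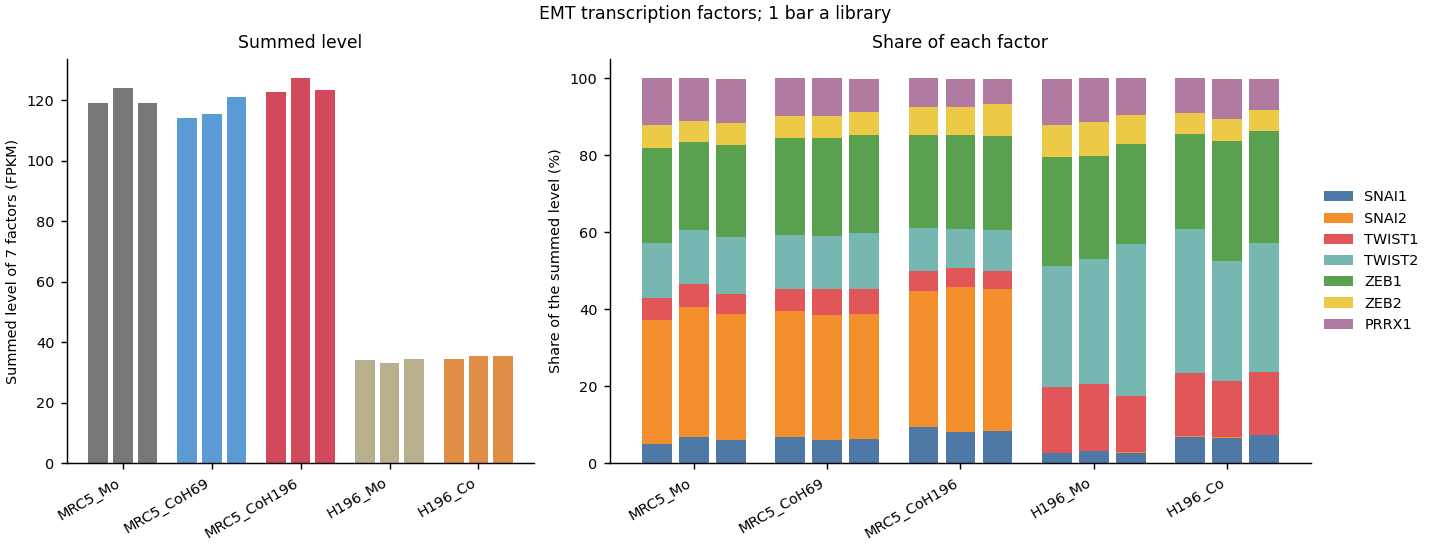
Summed FPKM of the 7 EMT transcription factors (left, y axis in FPKM from 0) and the share of each factor in that sum (right, y axis in percent), 1 bar for each of the 15 libraries. The sum stays between 114.2 and 127.2 FPKM in MRC5, while the PRRX1 share falls and the SNAI1 share grows in MRC5_CoH196, and H196 lacks the SNAI2 share.

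On FPKM the make-up of the sum differed more than its size. SNAI2 held 32.1% to 33.8% of it in MRC5_Mo and 35.4% to 37.5% in MRC5_CoH196. The share of PRRX1 was 11.2% to 12% in MRC5_Mo, 8.67% to 9.77% in MRC5_CoH69 and 6.7% to 7.55% in MRC5_CoH196. SNAI1 held 4.98% to 6.69% in MRC5_Mo and 8.15% to 9.45% in MRC5_CoH196, and in H196 2.58% to 3.06% alone and 6.62% to 7.32% with MRC5. TWIST2 held 31.6% to 39.4% of the H196_Mo sum and ZEB1 26% to 28.3%, and in H196_Co TWIST2 held 31.1% to 37.3% and ZEB1 24.8% to 31.1%. TWIST2 had the larger share except in H196_Co replicate 2, where both held 31.1%. Shares within a library do not depend on its scaling.

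Correlations across the 9 MRC5 libraries largely restate the difference between the groups by which these genes were described as rising. Pearson r of log2 CPM was 0.96 for SNAI2 and VIM, 0.96 for ZEB1 and ZEB2 and 0.91 for SNAI1 and VIM, and −0.72 for ZEB2 and PRRX1, as a description over libraries that share the 3 groups. The genes most like SNAI1 were SDE2 (r = 0.985), FAM222B (0.984) and BCL2L2 (0.982) among 9227 genes. For VIM they were FMN1 (0.998), MGLL (0.996) and RAP1GAP2 (0.996), and for ZEB2 RPL5 (0.996), STIM1 (0.995) and MAP4 (0.994). Such values were common, since 161 genes reached an r of 0.95 with SNAI1, 804 with VIM and 1342 with ZEB2.

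Other cadherins and their partners moved in both directions in MRC5 with H196. The counts of these and the following lists in this comparison stand beside the 37.2% of all genes that rose and the 37.1% that fell, with a median log2 fold change of 0.00. Of 16 further cadherin genes 6 could be tested, 3 were higher and 2 lower. CDH13, a cadherin anchored by a lipid, rose from 60.7 ± 2.78 to 103 ± 2.97 FPKM (SD, n = 3; log2 fold change 0.96, adjusted p 4.64e-16, edgeR). CDH6 rose from 15.8 ± 0.192 to 21.1 ± 0.731 FPKM (0.52, 2.32e-10), and CDH11, the cadherin of mesenchymal cells, fell from 65.5 ± 1.55 to 42.6 ± 0.997 FPKM (−0.44, 8.33e-10). In MRC5 both CDH13 and CDH11 were thus above CDH2 in FPKM. Among 14 catenins and other cadherin partners tested 6 rose and 4 fell, with AFDN (0.62), which links nectins to actin, and JUP (0.45), or plakoglobin, higher and NECTIN1 (−0.87) lower on the log2 scale.

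Genes of epithelial junctions, which the factors repress in epithelium, moved in both directions in MRC5 with H196. Of 18 junction genes tested 8 rose and 3 fell, with a median log2 fold change of 0.34. DSP, or desmoplakin, went from 3.16 ± 0.227 to 7.43 ± 0.325 FPKM (log2 fold change 1.38, adjusted p 4.95e-16, edgeR), CLDN7 from 1.08 ± 0.27 to 2.96 ± 0.309 (1.62, 7.92e-08) and PATJ from 0.683 ± 0.0874 to 1.53 ± 0.0833 (1.58, 1.39e-11). Of 5 keratins tested 3 rose and 1 fell, and KRT19 went from 19.9 ± 1 to 35 ± 3.03 FPKM, KRT8 from 12.6 ± 0.45 to 20 ± 1.17 and KRT7 from 0.997 ± 0.211 to 2.31 ± 0.551. KRT18, the most abundant of the 5 and named after its values were seen, fell from 75.8 ± 2.33 to 56.6 ± 4.91 FPKM (−0.25, adjusted p 0.000643, edgeR). Of 14 epithelial regulators only 4 could be tested, of which KLF5 (log2 fold change 1.05) and KLF4 (0.51) rose, while GRHL1, also named after its values were seen, fell at a level under 0.2 FPKM (−1.66, adjusted p 0.00498, edgeR).

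**Figure D4:**
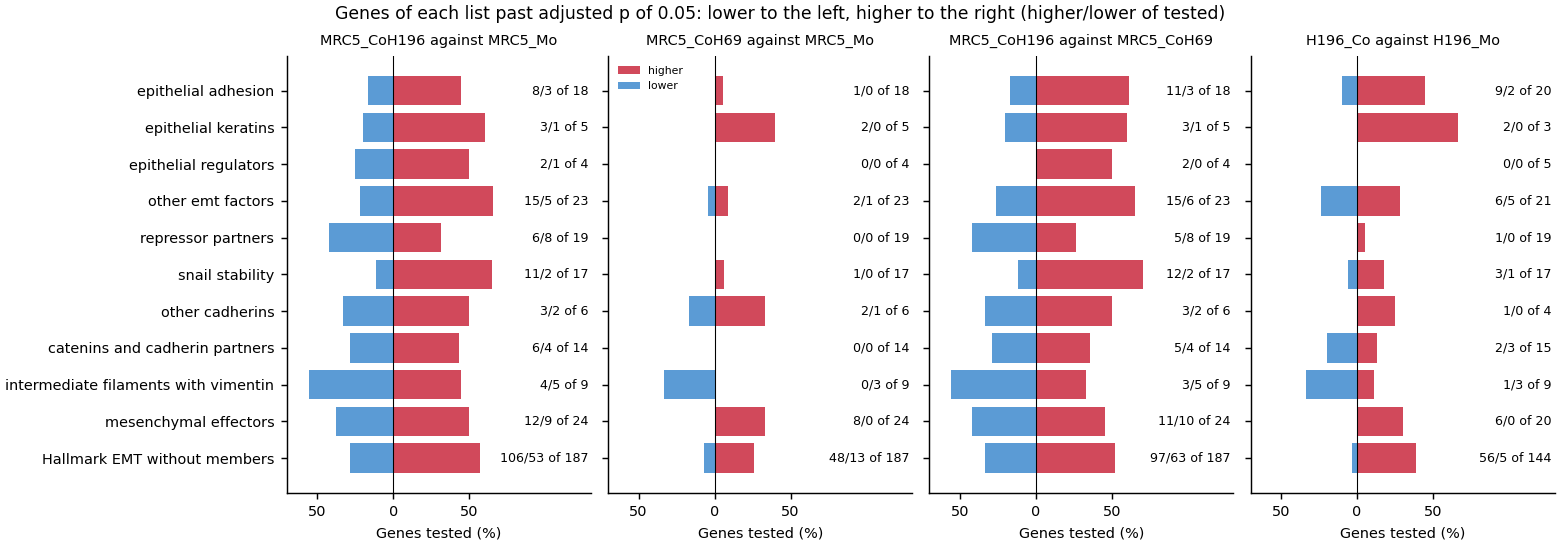
Percent of the tested genes of each list (y axis) that passed an adjusted p of 0.05, lower to the left and higher to the right of 0 (x axis), in the 4 comparisons; the figures beside the bars give higher and lower of tested. In MRC5_CoH196 against MRC5_Mo every list has genes in both directions, and in H196_Co against H196_Mo the Hallmark EMT genes that passed were 56 higher and 5 lower.

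Further EMT regulators and cofactors were also tested in MRC5 with H196. Of 23 other EMT factors 15 rose and 5 fell, among them ETS1, from 24.6 ± 0.635 to 63.2 ± 3.66 FPKM (log2 fold change 1.53, adjusted p 3.46e-19, edgeR), and TEAD2, a partner of YAP1, from 27.6 ± 1.16 to 13.2 ± 0.352 (−0.90, 2.56e-13). ID4, an inhibitor of helix-loop-helix factors, also fell (−0.88, 6.9e-06). On log2(FPKM + 1) with limma 11 of the other EMT factors rose and 7 fell. Of 19 corepressors and partners 6 rose and 8 fell, or 3 and 13 on that scale. EZH2, a histone methyltransferase of silenced promoters, fell from 11.3 ± 0.841 to 4.54 ± 0.707 FPKM (−1.11, 2.67e-11), and SUV39H1 fell by 0.96 on the log2 scale.

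Of 17 genes that act on the stability of Snail proteins 11 rose and 2 fell in MRC5 with H196, so 13 of 17 changed, near the 74.3% of all genes. The kinase gene LATS2 rose from 16.2 ± 0.371 to 38.8 ± 1.14 FPKM (1.45, adjusted p 9.96e-20, edgeR), and LOXL2, a lysyl oxidase family member that also interacts with Snail, rose from 273 ± 2.85 to 565 ± 8.41 FPKM (1.22, 1.09e-18). The F-box gene FBXL5, whose product can target Snail for degradation, rose too (0.54, 1.53e-09). Protein levels were not analysed here.

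Filament and mesenchymal genes did not move as one with VIM. Of 9 other filament and lamin genes 4 rose and 5 fell, with LMNB1 down from 27.6 ± 1.71 to 9.87 ± 1.22 FPKM (−1.34, adjusted p 1.43e-15, edgeR) and INA (0.73) and DES (0.85) up. Of 24 mesenchymal effectors 12 rose and 9 fell, or 10 and 10 on log2(FPKM + 1) with limma. LOX, which crosslinks collagen, rose from 110 ± 5.28 to 644 ± 27.1 FPKM (2.72, 1.23e-24), and the integrin gene ITGB3 rose by a log2 fold change of 1.15. The Hallmark EMT set, as the tables annotate it, held 4 of the 10 genes (SNAI2, PRRX1, CDH2 and VIM). Of its other genes 187 were tested in MRC5, where 106 were higher and 53 lower with H196 (median log2 fold change 0.23). With H69 48 were higher and 13 lower (median 0.08). The excess of higher genes with H196 depended on the scaling. On log2(FPKM + 1) with limma 83 of these Hallmark genes were higher and 68 lower with H196, where the median of all genes lay at −0.13. IGFBP3 (4.39), ENO2 (3.85) and VEGFA (3.84) had the largest log2 fold changes with H196 among those named by the rule.

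Fewer genes of these lists passed with H69, where 1 of 18 junction genes, 2 of 5 keratins, 2 of 6 cadherins and 8 of 24 mesenchymal effectors rose. With H69 1 cadherin gene and 3 of 9 filament and lamin genes fell, and of the other EMT factors 2 rose and 1 fell. Of 19 corepressors, 14 catenins and partners and 4 epithelial regulators 0 passed with edgeR or DESeq2, while 4, 4 and 1 had an unadjusted p under 0.05 with edgeR. In this comparison 3.78% of all genes rose and 2.93% fell.

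In H196 with MRC5 the counts of the lists stand beside 12% of all genes higher and 7.78% lower. Of 20 junction genes 9 rose and 2 fell, with PKP3 (log2 fold change 0.45), F11R (0.40) and JUP (0.39) higher, and KRT8 (0.43) and KRT18 (0.29) rose among 3 keratins tested. These counts depended on the processing. DESeq2 called 7 of the junction genes, and limma on log2(FPKM + 1) called 5, of which 3 rose and 2 fell. Of the keratins limma called 1. Among other EMT factors PRRX2 rose (0.86, adjusted p 0.000121, edgeR) and ID1 rose (0.58, 3.63e-05), while HMGA2, a chromatin factor, fell from 323 ± 21.4 to 238 ± 14.5 FPKM (−0.38, 0.00097). Of 17 genes that act on the stability of Snail proteins 3 rose and 1 fell, near the share of all genes. LOXL2 rose as in MRC5 (0.73, 2.81e-07), and GSK3B, the kinase that marks Snail for degradation, was lower (−0.31, 0.00554). FBXL14, an F-box gene of the same list, rose (0.29, 0.0276). CDH15 rose at a low level, from 0.503 ± 0.0666 to 0.893 ± 0.122 FPKM (0.90, 0.00788), and was the 1 of 4 further cadherins to pass. EPS8 (−0.49) and NECTIN3 (−0.30) were lower.

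Filament genes of H196 were lower in 3 cases and higher in 1 of 9, with SYNM (−0.74, adjusted p 3.6e-07, edgeR) and INA (−0.51, 1.72e-05) lower and PRPH (0.65, 0.0492) higher. Of 20 mesenchymal effectors 6 rose and the other 14 did not pass, and those that rose included MMP14 (0.69, 7.28e-07), a membrane-bound collagenase, and TAGLN (0.62, 0.00431). Of 144 further Hallmark EMT genes tested in H196, 56 were higher and 5 lower with MRC5 (median log2 fold change 0.19, against 0.00 over all genes). Among those named by the rule, the log2 fold change was 1.62 for ENO2 and 1.34 for IGFBP3. IGFBP3 lay at a low level in H196, from 0.26 ± 0.115 to 0.61 ± 0.182 FPKM. SNAI1 was the only one of the 10 genes to rise in H196.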

How the data were processed

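Expression of 10 EMT genes was taken from poly(A) RNA-seq of 15 libraries, 3 in each of 5 groups. Per the authors' methods and processing notes, reads were cleaned with SOAPnuke and aligned to GRCh38.p13, and the notes name HISAT2 2.1.0, Bowtie2 2.3.4.3 and RSEM 1.3.1. The authors deposited expected counts, which are not normalized, and FPKM values, scaled by the authors to transcript length and fragment total. All 150 expected counts of the 10 genes were whole numbers. TPM and normalized count columns (12 for H196, 18 for MRC5), the authors' columns of their own fold changes, p-values and q-values, and a second copy of each table were not used.

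Here expected counts were rounded and tested in R 4.3.3 with edgeR 4.0.16 (TMM, filterByExpr, two-sided quasi-likelihood tests), in 1 model for the 9 MRC5 libraries, 1 for the 6 H196 libraries and 1 for all 15 for the difference of responses. Genes with an adjusted p under 0.05 were called changed, and DEGs among them moved by more than 0.58 on the log2 scale. The standard error was taken as the log2 fold change over the square root of F. Alternatives were DESeq2 1.42.0, its size factors, limma 3.58.1 on log2(FPKM + 1) and log2(FPKM + 0.1), no filter, a replicate block, only the groups compared, and each library left out. On simulated counts with 200 genes changed by 1 on the log2 scale, edgeR recovered 200 for MRC5 with H196 (7 false calls), 198 for H196 (15) and 192 for the difference of responses (8). The changed genes were well counted, went up and down in equal number, and the spread was set rather than taken from these libraries. Smaller changes, genes with few counts such as SNAI1 in H196, and changes in as many genes as with H196 (74.3%) were not simulated. The recovery thus holds for that setting only. Standard errors come from the fitted spread between libraries and SDs from the libraries of a group, while floors cover counting error only.

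The 10 genes and the lists were chosen with earlier results of these data known. Beside the 10 genes, up to 3 genes of each list were named, those with the largest absolute log2 fold change that passed and a mean of at least 1 CPM, and the 3 genes with the highest r for each of the 3 genes that changed most in MRC5 with H196. TWIST2 is listed on an alternate contig and was given no coordinates. Some genes that this rule names are not reported here.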

Additional observations from a re-analysis of the deposited data

Results flagged for a closer look

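Of the 10 genes 5 responded differently in MRC5 grown with H196 and in H196 grown with MRC5, by a test of the difference of the log2 fold changes over all 15 libraries (edgeR, adjusted over 13585 genes). ZEB2 differed by 1.02, since it rose in all MRC5 co-culture libraries and fell in all H196 co-culture libraries. VIM differed by 0.43, being higher in MRC5 with H196 and not past the threshold in H196. SNAI1 differed by −0.70, with the larger rise in H196, where it rests on 20 to 63 counts a library. PRRX1 differed by −0.36 and TWIST2 by −0.33, both lower in MRC5 with H196 and not past the threshold in H196. The calls of ZEB2 and VIM held in every setting. That of SNAI1 was lost on log2(FPKM + 1) with limma (adjusted p 0.0736). PRRX1 lost its call when certain libraries were left out (adjusted p up to 0.0916, edgeR). TWIST2 lost its call with DESeq2 (adjusted p 0.117) and when any of many libraries was left out (up to 0.16, edgeR). Differences of response were common between the lines, at 51.2% of all genes.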

How the results depend on the processing

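With the added limit of 0.58 on the log2 fold change, 3 of the 10 genes were called in MRC5_CoH196 against MRC5_Mo, 0 in MRC5_CoH69 against MRC5_Mo, 3 in MRC5_CoH196 against MRC5_CoH69 and 1 in H196_Co against H196_Mo. On log2(FPKM + 1) and on log2(FPKM + 0.1) with limma 1 gene was called in MRC5_CoH69 against MRC5_Mo. Leaving out single libraries gave 6 to 7 genes called in MRC5_CoH196 against MRC5_Mo, 1 to 3 in MRC5_CoH69 against MRC5_Mo (1 without MRC5_Mo replicate 2), 5 to 7 in MRC5_CoH196 against MRC5_CoH69, 2 to 3 in H196_Co against H196_Mo and 3 to 5 for the difference of responses (3 without MRC5_CoH196 replicate 3). On TMM-scaled CPM the summed level of the 7 factors differed by 19.4% between MRC5_CoH196 and MRC5_Mo and by 21.5% between MRC5_CoH196 and MRC5_CoH69. In single genes the other settings left the outcome, called or not called, as it was in 261 cases. They gained a call in 9 and lost one in 12. Leaving out a library left the outcome as it was in 397 cases, gained a call in 6 and lost one in 23. The unchanged cases include genes called in neither fit and libraries of groups outside the comparison. No called value turned its sign. The gene lists moved too on log2(FPKM + 1) with limma. In MRC5_CoH196 against MRC5_Mo the further Hallmark EMT genes called were 83 higher and 68 lower, and the corepressors 3 higher and 13 lower. The median of all genes lay at −0.13 there. Those Hallmark genes were 31 higher and 8 lower with H69, and 42 higher and 7 lower in H196_Co against H196_Mo. The causes were not tested. Counts under about 25 per library, as for SNAI1 in H196_Mo, and the 0 to 4 counts of CDH1 limit what can be seen.

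Replicate numbers did not pair the libraries: deviations of libraries with the same number correlated at −0.116 to 0.081 over 9 pairs in MRC5 and −0.151 to 0.0334 over 3 in H196. With the replicate block 7, 2, 7 and 2 genes were called in the same 4 comparisons and 5 for the difference of responses. The block changed 1 call, PRRX1 in MRC5_CoH196 against MRC5_CoH69 (−0.13, adjusted p 0.0496, edgeR).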
